A study of Mus musculus with 4 samples.

Results

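The cells described here are the Lmx1a negative floor plate and basal plate cells of the E10.5 mouse embryonic brain, 501 of 24259 kept cells. They were chosen cell by cell from raw UMI counts, where a UMI (unique molecular identifier) stands for 1 captured transcript. A cell entered with at least 1 UMI of Foxa2, at least 1 of Sox2 and at least 1 of any of Spon1, Lrtm1, Shh and Sim1, with no UMI of Lmx1a or Epcam, and with at most 2 of the 6 neuronal genes Tubb3, Stmn2, Dcx, Elavl3, Ina and Gap43. Kept cells had at least 500 detected genes and under 10% mitochondrial UMIs. The rule uses measured values, so the levels of these 14 genes are given as a description and were not tested.

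Embryos were wild type (WT) or labelled Apcdd1+/-, that is heterozygous for Apcdd1, an inhibitor of Wnt signalling at the cell surface. There were 2 droplet libraries per genotype, all from E10.5, prepared from embryo heads and labelled embryonic brain. The labels name no strain, no number of embryos per library, no treatment and neither the origin of the altered Apcdd1 allele nor the part of the gene it changes. Nothing says that the libraries came from separate litters, so p-values between genotypes measure only the spread between these libraries, which may be technical. Values of the 4 libraries are given below in the order WT replicate 1, WT replicate 2, Apcdd1+/- replicate 1, Apcdd1+/- replicate 2.

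The floor plate is the strip of glia-like progenitors along the ventral midline of the neural tube. It is induced by Sonic hedgehog (Shh) from the notochord, expresses Foxa2 and comes to secrete Shh itself, together with axon guidance cues such as netrin and the Slit proteins. The basal plate beside it holds progenitor domains that read graded Shh through Gli factors and switch on homeodomain genes such as Nkx2-2, Nkx6-1 and Nkx6-2. In the midbrain and caudal forebrain, floor plate cells that also express Lmx1a are the source of dopaminergic neurons, and Sim1 is known from progenitors and neurons just lateral to them.

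Total UMIs were 82496666, 55393605, 96822641 and 58600897, and 6258, 2956, 9501 and 5544 cells were kept. The selected cells numbered 113, 92, 188 and 108, and their summed UMIs were 1389162, 1445321, 1900043 and 1148956. Their median depth was 11756, 15859, 9091 and 10018 UMIs per cell, so WT replicate 2 was the deepest and the one with fewest cells. No doublets were removed and no caller was run, so doublets must be taken as present. The barcode list of Apcdd1+/- replicate 1 named only 3945 of its 9501 kept cells. Among the cells whose barcodes are listed, 3 selected cells shared a barcode with a cell of another library. In the selected cells the Y-linked gene Eif2s3y stood at 39.6, 0, 0 and 37.4 CPM (UMIs of the gene per 1000000 UMIs summed over the cells), which puts 1 library with its UMIs in each genotype.

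The marker genes of the label were unevenly detected. Foxa2, which the rule required, was in every selected cell. Spon1, a secreted floor plate adhesion protein, was detected in 91.4% of the 501 cells, and Lrtm1, a transmembrane protein with leucine-rich repeats, in 42.9%. The basal plate transcription factor Sim1 was detected in 16.8% and Shh, a rule gene that is not among the label's markers, in 35.5%. Slit1, a repellent for commissural axons that the rule did not use, was detected in 54.1%. For background, 2804 mesenchymal cells (no Sox2 UMI and at least 2 mesenchyme markers at 2 or more UMIs each, median depth 14497 UMIs against 10528) showed Spon1 in 10.4%, Lrtm1 in 0.464%, Shh in 0.25%, Sim1 in 2.71% and Slit1 in 1.32% of cells. After thinning each cell to 5000 UMIs, which left 298 selected cells, the shares were 86.2% for Spon1, 40.3% for Lrtm1, 25.5% for Shh, 8.72% for Sim1 and 41.6% for Slit1. The same mesenchymal gate on thinned cells gave 5.09%, 0.219%, 0%, 1.86% and 0.711%. The rule was applied again to the thinned counts, so the 298 cells are not simply a subset of the 501. Cells whose UMIs of Lmx1a, Epcam or a neuronal gene were lost by thinning could enter. The Wnt antagonist gene Dkk1, for example, had no UMI in the 501 cells and was detected in 0.671% of the 298. Besides Foxa2, Spon1 and Slit1 were detected in most of the selected cells before thinning, and Lrtm1 and Sim1 in a minority.

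Most cells entered through Spon1. Of the 501 cells, 215 had only 1 of the 4 alternative genes, and in 184 of these it was Spon1, in 18 Lrtm1, in 11 Shh and in 2 Sim1. At the other end, 29 cells had all 4. The cells near the thresholds were many: 219 had a single Foxa2 UMI, 128 had 2 and 154 had 3 or more, and 47 had a single Sox2 UMI. The neuronal genes were absent from 185 cells, 1 was present in 176 and 2 in 140. Just outside, 78 otherwise eligible cells had 3 neuronal genes, 107 had none of the 4 alternative genes, 17 had Epcam, and 135 were kept out by Lmx1a alone, 25 of them by a single UMI. Removing the Foxa2 condition alone would have admitted 2396 cells.

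Levels in CPM here and below are from UMIs summed over the cells of a class in each library, relative to that sum over all genes. Foxa2, the forkhead factor of the floor plate, stood at 214, 210, 185 and 215 CPM. Spon1 stood at 480, 441, 423 and 546 CPM and Lrtm1 at 151, 191, 141 and 144 CPM. Shh stood at 43.9, 47.0, 59.0 and 36.6 CPM and Sim1 at 24.5, 41.5, 14.7 and 22.6 CPM. The ranges of the 2 genotypes overlapped for Foxa2, Spon1 and Shh. For Lrtm1 and Sim1 both WT libraries lay above both Apcdd1+/- labelled libraries, with WT replicate 2 the highest. Such a split was common: 1673 of 9662 genes (17.3%) were lower in both Apcdd1+/- labelled libraries without overlap.

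Apcdd1, the gene altered in the heterozygous embryos, stood at 173, 165, 169 and 124 CPM in the selected cells. Apcdd1+/- replicate 2 was the lowest, while Apcdd1+/- replicate 1 fell between the WT libraries. The log2 difference was -0.15 (standard error (SE) 0.20, edgeR quasi-likelihood test, adjusted p = 0.999). The counts do not separate the 2 labels at this gene, and because the labels do not say which stretch of the gene is changed, they may check nothing. Genotypes are named below as labelled.

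Between genotypes, edgeR's quasi-likelihood test called 0 of 9662 genes at an adjusted p of 0.05 (0%), while 268 (2.77%) had an unadjusted p under 0.05. DESeq2 also called 0, with 45 genes under an unadjusted 0.05. Slit1 stood at 149, 116, 95.8 and 131 CPM, a log2 difference of -0.20 (SE 0.22, adjusted p = 0.999) with overlapping libraries. No gene of any list used below passed the threshold. Of the 24 Wnt signalling genes that passed the filter on low counts (of 34 listed), 5 were higher and 19 lower in the Apcdd1+/- labelled libraries, none past the threshold, with a median log2 difference of -0.17 against 0.01 over all genes tested. The median was 0.05 over 12 floor plate genes and -0.02 over 14 hedgehog pathway genes.

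The smallest p-value belonged to Crabp1, which encodes a cytoplasmic carrier of retinoic acid and is singled out here after its values were seen. Crabp1 stood at 97.2 and 124.5 CPM in WT and at 254 and 196 CPM in the Apcdd1+/- labelled libraries, without overlap. Its log2 difference was 1.07 (SE 0.20, adjusted p = 0.129), and in cells thinned to 5000 UMIs it was -0.04. Groups that did not overlap were common: 1149 genes (11.9%) were higher and 1673 (17.3%) lower in both Apcdd1+/- labelled libraries than in both WT libraries. With the replicate number as a block, Crabp1 and Cyp26b1 were called. Cyp26b1, which encodes an enzyme that degrades retinoic acid, stood at 20.2, 57.4, 0 and 22.6 CPM, so that Apcdd1+/- replicate 1 held none. Leaving out Apcdd1+/- replicate 1 gave 4 calls and Apcdd1+/- replicate 2 gave 8, against 9 and 5 when WT replicate 1 or WT replicate 2 was left out, in fits that take the spread of the remaining pair for the single library.

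The selected cells made up 1.81% (exact binomial 95% interval 1.49 to 2.17%), 3.11% (2.52 to 3.80%), 1.98% (1.71 to 2.28%) and 1.95% (1.60 to 2.35%) of kept cells. WT replicate 2 was the highest and the other 3 libraries lay within each other's intervals, which cover counting error only. The mean of the Apcdd1+/- labelled libraries was 0.496 percentage points below that of WT, with a two-sided exact permutation p of 1 in a design whose smallest p is 0.33. Without WT replicate 2 the difference was 0.158 points in the other direction, and without WT replicate 1 it was -1.15 points. In cells thinned to 5000 UMIs, which left out 3869 shallower cells, the shares were 1.15%, 2.32%, 1.34% and 1.53%. The plot of shares and of Apcdd1 by library shows both patterns.

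**Figure D1:**
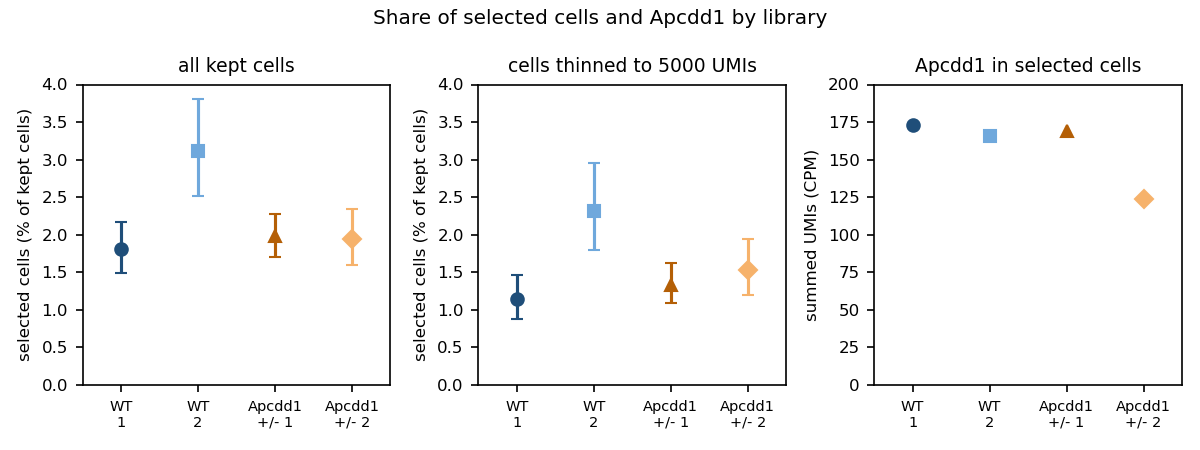
Share of selected cells among kept cells (percent, left: all kept cells, middle: cells thinned to 5000 UMIs, bars: exact binomial 95% intervals) and Apcdd1 level in the selected cells (CPM, right), 1 point per library. WT replicate 2 has the highest share at 3.11%, and Apcdd1 lies between 124 and 173 CPM.

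To see what the selected cells share beyond the rule, their summed counts were compared within each library with those of 10374 Foxa2 negative progenitors, which had Sox2 and none of Foxa2, Spon1, Lrtm1, Shh, Sim1, Lmx1a and Epcam (median depth 9822.5 UMIs). The 14 rule genes were left out. Genes that vary with the rule genes from cell to cell are not independent of the choice of cells, so the tests here say how evenly a difference held over the 4 libraries. Of 13308 genes tested, 3006 passed an adjusted p of 0.05 (22.6%), 1373 higher (10.3%) and 1633 lower (12.3%) in the selected cells. The count was 1899 in cells thinned to 5000 UMIs and 1862 among selected cells with none of the 6 neuronal genes.

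Floor plate genes outside the rule were higher in the selected cells. Of the 14 of 16 that passed the filter, 13 rose and 1 fell, with a median log2 difference of 2.81 against -0.02 over all genes tested. Slit1 stood at 149, 116, 95.8 and 131 CPM in the selected cells and at 4.68, 3.86, 2.67 and 7.16 CPM in the Foxa2 negative progenitors, a log2 difference of 4.70 (SE 0.15, adjusted p = 3.7e-24). The selected cells were the higher class in every library and the ranges did not overlap (1500 genes, 11.3% of those tested, were higher without overlap). Foxa1, the forkhead paralogue of Foxa2, stood at 47.5, 58.1, 41.6 and 43.5 CPM against 0.628, 0.858, 0.587 and 0.480 CPM (log2 difference 6.11, SE 0.28, adjusted p = 1.6e-19). Sulf1, an extracellular sulfatase that trims heparan sulfate, differed by 3.90 on the log2 scale (SE 0.07), with 286 to 345 CPM against 16.6 to 23.2 CPM. The midline attractant Ntn1 stood at 91.4 to 136 CPM against 9.64 to 14.4 CPM, a log2 difference of 3.09 (SE 0.11). The basic helix-loop-helix gene Ferd3l (log2 difference 6.46, SE 0.57) and the protease gene Corin (3.85, SE 0.42), both known from the ventral midline of the midbrain, also rose. The 1 gene that fell was Fgf10 (-1.58, SE 0.58, adjusted p = 0.043), at no more than 1.74 CPM in the selected cells, and it lost its call when any 1 of the 4 libraries was left out.

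Among all genes, the largest differences upward included Spink1, a secreted protease inhibitor (11.1 to 49.6 CPM against 0 to 0.251 CPM, log2 difference 7.58, SE 0.58), and Fam183b, a gene of ciliated cells (53.3 to 129 CPM against 0.753 to 1.23 CPM, 6.54, SE 0.22). Metrnl, a secreted factor (6.27, SE 0.39), Erich3, a cilium gene (4.89, SE 0.35), Dkk2, a secreted Wnt modulator (4.57, SE 0.31), Ttc6 (4.40, SE 0.37), Apela, a peptide ligand of the apelin receptor (4.07, SE 0.32), and Gm17455 (3.94, SE 0.31) completed the 10 chosen with Slit1 and Foxa1. Each was higher in the selected cells of all 4 libraries. Dkk2 varied most among libraries, with 22.3, 81.6, 42.1 and 13.1 CPM.

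The genes of largest difference downward included Pax3 and Pax7, known from the dorsal neural tube, and Lhx2, known from the forebrain. Dmrt3 (-4.33, SE 0.32), Pax3 (-4.02, SE 0.19), Zic1 (-3.83, SE 0.14), Mab21l2 (-3.75, SE 0.28), Pax7 (-3.70, SE 0.28), Msx3 (-3.58, SE 0.24), Lhx2 (-3.57, SE 0.17), Pax6 (-3.51, SE 0.13) and Zic5 (-3.42, SE 0.25) were lower in every library. Pax6, which patterns progenitors outside the ventral midline, stood at 7.20, 22.8, 23.2 and 13.1 CPM against 155, 208, 156 and 230 CPM. Of 12 forebrain identity genes, 9 fell and 1, Barhl2, rose, with a median log2 difference of -1.85. The Barhl2 difference was 0.85 (SE 0.30, adjusted p = 0.04). Its call was lost with DESeq2, with Foxa2 at 2 UMIs or more, in thinned cells, in cells with no neuronal gene and with the library left out of the model. It was also lost without WT replicate 2 (0.33) or either Apcdd1+/- labelled library. Otx2 was detected in 50.3% of the Foxa2 negative progenitors and 62.5% of the selected cells, and the part of regional origin in these differences was not tested.

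The hedgehog pathway was split. All 16 listed genes passed the filter, 5 rose and 6 fell, with a median log2 difference of 0.17. Those that rose included the receptor and target Ptch1, the ligand-binding Hhip, the activator and target Gli1, and Disp3. Ptch1 stood at 145, 246, 133 and 151 CPM against 57.9, 71.1, 48.5 and 68.7 CPM (log2 difference 1.34, SE 0.08). It was higher in every library, with WT replicate 2 the highest among the selected cells. Gli1 stood at 23.8, 53.3, 30.5 and 47.9 CPM against 19.9, 24.7, 16.8 and 25.0 CPM (0.72, SE 0.14, adjusted p = 0.00015), with overlapping ranges. In cells thinned to 5000 UMIs the Gli1 difference was -0.04, and the call was also lost in cells with no neuronal gene (0.56). Hhip and Disp3 lost theirs under the same settings.

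The genes that fell were co-receptors, the other Gli factors and a release factor. Gas1, Boc and Cdon, which bind Shh at the cell surface, differed by -2.96 (SE 0.17), -1.85 (SE 0.20) and -1.77 (SE 0.16). Gas1 stood at 6.48, 8.30, 11.1 and 5.22 CPM in the selected cells against 56.2, 63.2, 56.0 and 60.5 CPM. Gli3, the main repressor of the pathway, differed by -2.93 (SE 0.13), Gli2 by -1.99 (SE 0.21) and Scube2, which helps to release Shh, by -3.80 (SE 0.41). In these 6 genes the ranges of the 2 classes did not overlap (748 genes, 5.62% of those tested, were lower without overlap).

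Ventral domain factors were present beside the floor plate genes. Of 16 listed genes, all tested, 7 rose and 4 fell. Nkx6-1 stood at 123, 85.1, 108 and 100 CPM against 15.5, 15.1, 13.3 and 10.96 CPM (log2 difference 2.82, SE 0.12, adjusted p = 8.5e-21). Nkx2-9 differed by 2.92 (SE 0.18), Nkx2-2 by 2.73 (SE 0.19) and Nkx6-2 by 1.63 (SE 0.10). Sim2, the paralogue of Sim1, differed by 3.74 (SE 0.42), a call lost in cells with no neuronal gene. Nkx2-2, which marks the progenitor domain next to the floor plate, was detected in 24.4% of the selected cells and Nkx6-2 in 27.4%, against 3.26% and 9.21% of the Foxa2 negative progenitors and 0.25% and 1.25% of the mesenchymal cells. After thinning the shares in the selected cells were 15.1% and 20.1%.

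Among signalling genes, Wnt pathway members were divided: of the 33 of 34 tested, 14 fell, 6 rose and 13 did not pass (median -0.31). Those that rose included Wnt5a, a non-canonical ligand (86.4, 122, 133 and 114 CPM against 24.2, 30.0, 25.4 and 19.3 CPM, log2 difference 2.1, SE 0.11), and Sp5, a transcriptional target of the pathway (1.89, SE 0.21). Apcdd1 also rose, to 173, 165, 169 and 124 CPM from 55.4, 55.8, 67.0 and 40.8 CPM (1.42, SE 0.08, adjusted p = 4.4e-17). All 4 libraries showed each of these differences. Of 33 axon guidance genes tested, 13 rose and 8 fell. Slit2 (2.69, SE 0.08), Slit3 (2.42, SE 0.14) and the semaphorin receptors Nrp2 (2.63, SE 0.20) and Nrp1 (2.01, SE 0.21) rose. Of 21 Notch and proneural genes, 11 rose and 1, the repressor Hes3 (-3.32, SE 0.36), fell. Hey1, a Notch target, stood at 140, 81.6, 107 and 127 CPM against 27.8, 24.7, 21.9 and 21.7 CPM (2.13, SE 0.11).

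S phase genes were lower. All 24 listed passed the filter and 20 fell, by small amounts, with a median log2 difference of -0.31, and none rose. Ung, a DNA repair gene of replicating cells, differed by -0.65 (SE 0.09), and the replication clamp gene Pcna by -0.50 (SE 0.06), with 143, 139, 247 and 97.5 CPM against 207, 181, 310 and 127 CPM. Pcna was lower in the selected cells of every library, although the libraries themselves differed by more than the classes did, and its call was lost when the library was left out of the model. Of 24 G2 and M phase genes, 1 rose and 6 fell (median -0.07). Immediate early and stress genes moved as well: 6 of 20 rose and 3 fell, and Fos stood at 77.0, 29.8, 48.4 and 58.3 CPM against 17.9, 15.3, 19.7 and 7.24 CPM. The summed level of that list overlapped between the classes, at 4354 to 5083 CPM against 3753 to 5069 CPM, and its part in the other differences was not tested.

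Markers of other cell classes were summed in the same way. The summed level of 8 erythroid markers was 31.6 to 92.0 CPM, against 40.4 to 857 CPM in the Foxa2 negative progenitors, where WT replicate 2 was highest. The 12 mesenchyme markers summed to 31.7 to 93.7 CPM, against 94.0 to 154 CPM, and 6 of them fell while 2 rose. The 8 notochord and prechordal markers summed to 7.37 to 9.36 CPM, and Noto, Gsc, Krt19 and Hand1 were at 0. The notochord gene T was detected in 0.20% of the selected cells. The endothelial markers summed to 7.83 to 51.1 CPM, the immune markers to 9.36 to 27.0 CPM with C1qa at 0. The 14 endoderm and epithelium markers summed to 6.96 to 12.6 CPM, against 9.12 to 11.2 CPM in the Foxa2 negative progenitors, with Cldn4, Foxe1, Pax1 and Krt5 at 0. Of the 5 of these that were tested, 1 fell and Cdh1, an epithelial cadherin gene, rose (2.06, SE 0.48, detected in 4.19% against 0.983% of cells), a call lost in thinned cells. In 10 of the 501 cells at least 2 markers of a mesenchymal, endothelial, erythroid, immune or crest list stood at 2 or more UMIs each. Neuron markers outside the rule's 6 summed to 264 to 389 CPM, above the 206 to 223 CPM of the Foxa2 negative progenitors, and their part in the differences was not tested.

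**Figure D2:**
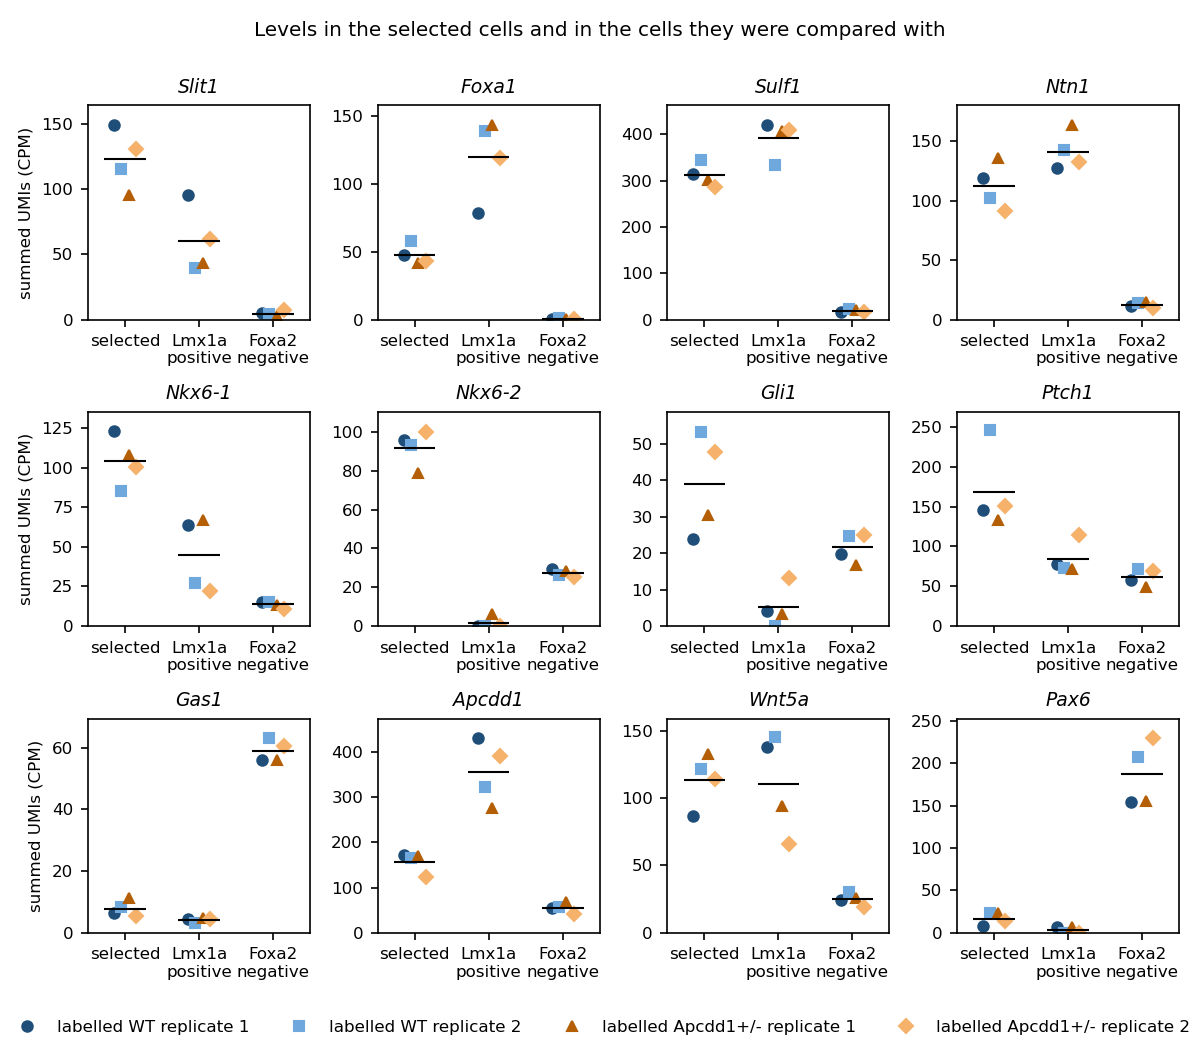
Summed UMIs (CPM, linear axes from 0) of 12 genes in the selected cells, the Lmx1a positive cells and the Foxa2 negative progenitors, 1 point per library, bar: mean of the 4 libraries. Slit1, Nkx6-1 and Nkx6-2 are highest in the selected cells, Foxa1 and Apcdd1 in the Lmx1a positive cells, and Gas1 and Pax6 in the Foxa2 negative progenitors.

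The nearest class was the 135 cells that met every condition but had Lmx1a (38, 18, 61 and 18 per library, median depth 11022 UMIs). They differed from the selected cells in 314 of 9302 genes tested (3.38%), 146 higher (1.57%) and 168 lower (1.81%) in the selected cells. The count was 199 without Apcdd1+/- replicate 1, the library with the most Lmx1a positive cells. It was 117 in thinned cells, 177 with Foxa2 at 2 UMIs or more and 153 with DESeq2. The classes also differed in Otx2, detected in 128 of the 135 Lmx1a positive cells and 313 of the 501 selected cells. Many genes named below also differed by Otx2 within the selected cells. Among them Slit1, Slit2, Sulf1, Nkx6-1, Nkx6-2, Hey1, Rtn1, Irx2, Lmx1b, Fgf8, Ptx3 and Cyp26b1 were lower with Otx2. Dbx1, Sim2, Gli1, Hes5, Stmn3, Stmn4, Wnt8b, Apcdd1 and Ccnd2 were higher with Otx2. The part of Otx2 and of regional origin in the differences from Lmx1a positive cells was not tested.

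Floor plate genes did not separate the classes as a block: of the 12 of 16 tested, 2 rose, 3 fell and 7 did not pass, with a median log2 difference of -0.26. Slit1 was higher in the selected cells, at 149, 116, 95.8 and 131 CPM against 95.5, 39.4, 43.0 and 61.7 CPM (log2 difference 1.04, SE 0.18, adjusted p = 7.6e-05). Nkx6-1 was also higher, at 85.1 to 123 CPM against 22.0 to 66.9 CPM (1.11, SE 0.20). Foxa1 was lower, at 47.5, 58.1, 41.6 and 43.5 CPM against 78.6, 139, 143 and 119 CPM (-1.33, SE 0.19, adjusted p = 1.7e-06), and Slit2 was lower at 183 to 222 CPM against 339 to 440 CPM (-0.97, SE 0.11). The ranges of the 2 classes did not overlap for Foxa1 or for Slit2 (302 genes, 3.25%, were lower without overlap). Sulf1 was called at -0.33 (SE 0.10, adjusted p = 0.045). That call was lost under every other setting run, except when WT replicate 2 was left out.

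Ventral domain factors differed in both directions. Nkx6-2 stood at 95.7, 93.4, 79.0 and 100 CPM in the selected cells and at 0, 0, 6.37 and 0 CPM in the Lmx1a positive cells, from 533 and 4 UMIs (log2 difference 5.16, SE 0.42, adjusted p = 1.6e-12). Nkx2-2 stood at 43.2, 48.4, 30.0 and 33.9 CPM against 4.25, 3.03, 3.18 and 8.82 CPM (3.12, SE 0.42). Nkx2-9 was higher by 2.18 (SE 0.33), whereas Nkx2-4 (-4.03, SE 0.31), Dbx1 (-3.14, SE 0.27) and Sim2 (-2.33, SE 0.28) were lower. Of 13 factors tested, 5 rose, 5 fell and 3 did not pass (median 0.50). Of the 8 of 12 midbrain and isthmus identity genes tested, 4 rose and 3 fell (median 0.81). The Sim2 level of the selected cells thus lay above that of the Foxa2 negative progenitors and below that of the Lmx1a positive cells.

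Hedgehog targets were among the genes higher in the selected cells. Of the 10 of 16 pathway genes tested, 3 rose and none fell. Gli1 stood at 23.8, 53.3, 30.5 and 47.9 CPM against 4.25, 0, 3.18 and 13.2 CPM (3.02, SE 0.45, adjusted p = 4.6e-06). Ptch1 differed by 1.00 (SE 0.16), at 145, 246, 133 and 151 CPM against 78.6, 72.7, 71.7 and 115 CPM. The Lmx1a positive cells were below the selected cells in every library for both genes. Shh itself, a rule gene, was detected in 64.4% of the Lmx1a positive cells and 35.5% of the selected cells.

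Notch and proneural genes included 3 of 15 that rose and none that fell. Neuron markers outside the rule's 6 moved with this comparison: their sum was 264 to 389 CPM in the selected cells and 146 to 251 CPM in the Lmx1a positive cells, without overlap. Of the 7 of 15 tested, Stmn3, Rtn1 and Stmn4 rose, none fell and the median was 0.90. The Stmn3 call was lost with DESeq2, with Foxa2 at 2 UMIs or more and without either Apcdd1+/- labelled library. Nhlh1 and Isl1 were at 0 in the Lmx1a positive cells, and the part of neuron markers in the other differences was not tested. Hes5, a Notch effector of cycling progenitors, stood at 134, 172, 101 and 136 CPM against 29.7, 6.06, 31.8 and 70.5 CPM (2.03, SE 0.24, adjusted p = 3.2e-08). Dll1 (1.62, SE 0.36) and Hey1 (0.81, SE 0.19) each lost the call without one Apcdd1+/- labelled library, Dll1 without replicate 1 and Hey1 without replicate 2. The cyclins split: Ccnd1 was higher (826 ± 63.7 CPM against 371 ± 25.3 CPM, SD over 4 libraries, log2 difference 1.15, SE 0.08) and Ccnd2 was lower (-0.66, SE 0.07). No S phase gene of 24 was called.

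Wnt genes were divided: of the 26 of 34 tested, 8 fell, 4 rose and 14 did not pass, with a median log2 difference of -0.06. Wnt8b stood at 20.2, 20.1, 14.7 and 12.2 CPM against 270, 470, 221 and 168 CPM (-4.03, SE 0.18, adjusted p = 9.1e-22). Rspo2, an enhancer of Wnt reception (-4.62, SE 0.33), Wnt1 (-4.0, SE 0.53) and Apcdd1 (173, 165, 169 and 124 CPM against 433, 324, 277 and 392 CPM, -1.13, SE 0.12, adjusted p = 2.1e-09) were lower in all 4 libraries. The Wnt antagonist gene Dkk1 had no UMI in the selected cells and 19 in the Lmx1a positive cells. With the absent side set to a floor of 3 counts over the class, it was 22.5-fold lower. Dkk2, which is not in that list, was lower (-3.69, SE 0.16) and stood at 272 to 700 CPM in the Lmx1a positive cells. Of the midbrain floor plate and dopaminergic genes, 7 of 16 tested fell and 2 rose, and Lmx1b, the paralogue of Lmx1a, stood at 13.0, 23.5, 21.6 and 15.7 CPM against 68.0, 45.4, 76.4 and 52.9 CPM (-1.74, SE 0.26).

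Hindbrain genes pointed the other way, with 5 of 7 tested higher and none lower in the selected cells. Phox2a, which specifies hindbrain visceral and branchial motor neurons, had 91 UMIs in 25 of the 501 selected cells and none in the Lmx1a positive cells. With the absent side set to the floor of 3 counts, it was 8.54-fold higher. Cyp26b1 had 137 UMIs in 23 selected cells and none in the Lmx1a positive cells, 12.9-fold higher at that floor. It had 0 in Apcdd1+/- replicate 1 of both classes. Irx2 stood at 71.3, 44.97, 43.7 and 48.7 CPM against 14.9, 9.09, 7.96 and 4.41 CPM (2.44, SE 0.33). Fgf8, the isthmic organizer ligand, had 132 UMIs against 1, a ratio of 37.2 in CPM (95% counting interval 6.55 to 1478), and Ptx3, a secreted pentraxin, 333 against 2, a ratio of 46.9 (12.9 to 389). The call for Fgf8 was lost without Apcdd1+/- replicate 1, whose selected cells held the most.

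The other genes of largest difference upward were Cdkn1a, a cell cycle inhibitor gene (163 against 3 UMIs, ratio 15.3, interval 5.14 to 74.9), Cbln1, a secreted synapse organizer (3.13, SE 0.36), Shisa3 (3.10, SE 0.46), Adgra1 (2.98, SE 0.62, call lost without WT replicate 1) and the radial glia lipid carrier gene Fabp7, at 653, 556, 677 and 500 CPM against 91.3, 51.5, 70.1 and 132 CPM (2.91, SE 0.14, adjusted p = 7.8e-21). The others downward were Slco1c1 (-4.42, SE 0.74), Thbd (-3.76, SE 0.47), Necab1 (-3.37, SE 0.39) and Barhl2, a diencephalic homeobox gene (-3.37, SE 0.27). Each was on the same side in all 4 libraries. Cdkn1a was highest in WT replicate 2, at 10.8, 69.2, 17.9 and 12.2 CPM. Thinning to 5000 UMIs left 67 Lmx1a positive cells and 3 libraries to compare. In the thinned cells Slit1, Foxa1, Nkx6-1, Ptch1, Sim2, Dll1 and Sulf1 kept their direction and lost their calls. DESeq2 did not call Cdkn1a, Cyp26b1, Fgf8, Hes5, Dll1, Hey1, Sulf1 or Adgra1. With Foxa2 at 2 UMIs or more, Nkx6-1, Dll1, Hey1, Stmn3 and Sulf1 lost their calls.

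**Figure D3:**
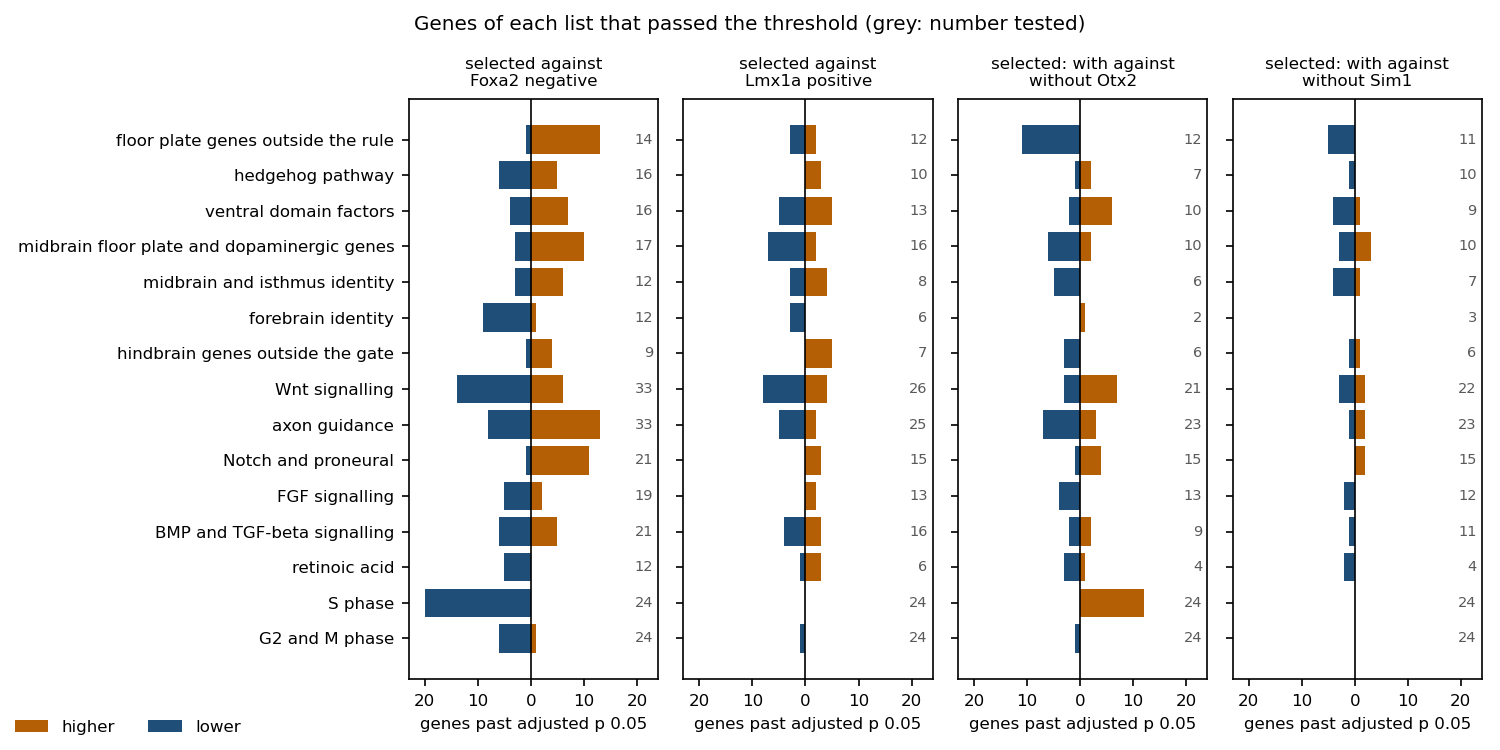
Number of genes per list past an adjusted p of 0.05 in the edgeR comparisons, higher to the right and lower to the left, with the number tested in grey, for selected cells against Foxa2 negative progenitors, against Lmx1a positive cells, and within the selected cells by Otx2 and by Sim1. Floor plate genes rise in 13 of 14 against Foxa2 negative progenitors and fall in 11 of 12 in the cells with Otx2.

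The selected cells were not uniform. Otx2, the transcription factor of forebrain and midbrain, was detected in 313 of the 501 cells (62.5%, 67, 63, 123 and 60 per library) and absent from 188. The planned division into rostral and caudal cells could not be tested, since only 30 cells had a caudal gene and no Otx2, so cells were divided by Otx2 alone, a choice made after these numbers were known. A cell without an Otx2 UMI may still express it, and the median depth was 11030 UMIs with and 9828 without. Lrtm1 was detected in 59.7% of cells with Otx2 and 14.9% of those without, Sim1 in 24.6% and 3.72%, Spon1 in 88.5% and 96.3% and Shh in 35.8% and 35.1%. Thinned to 5000 UMIs, Lrtm1 gave 59.3% and 14.3% and Shh 23.8% and 27.8%. These rule genes are described only.

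Between the 2 sets, 806 of 8387 genes passed the threshold (9.61%), 373 higher (4.45%) and 433 lower (5.16%) in the cells with Otx2. The count was 499 without WT replicate 2, 155 in thinned cells, 212 among cells with no neuronal gene, 452 with Foxa2 at 2 UMIs or more and 305 with DESeq2. Floor plate genes were lower in the cells with Otx2: of the 12 of 16 tested, 11 fell, none rose and Foxa1 did not pass, with a median log2 difference of -1.51 against 0.01 over all genes. Slit1 stood at 89.6, 76.0, 72.8 and 90.5 CPM with Otx2 and at 245, 212, 146 and 190 CPM without (-1.23, SE 0.14, adjusted p = 7e-08). Slit2 stood at 74.5, 66.3, 114 and 90.5 CPM against 359, 603, 346 and 395 CPM (-2.23, SE 0.15). In both Slit genes the 4 libraries of one set lay apart from the 4 of the other (503 genes, 6%, were lower without overlap).

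Corin showed the largest difference of that list, 1.16, 0, 3.83 and 2.92 CPM with Otx2 against 28.3, 47.7, 30.2 and 12.9 CPM without (-3.76, SE 0.56). Sulf1 and Sulf2, which remodel heparan sulfate, both differed by -1.62 (SE 0.12), and Cmtm8 by -1.90 (SE 0.15). Every library showed these differences.

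The hedgehog target Gli1 went the other way. Gli1 stood at 29.1, 68.2, 41.4 and 78.8 CPM with Otx2 and at 15.1, 16.7, 6.71 and 2.16 CPM without (2.38, SE 0.35, adjusted p = 9.8e-06). The co-receptor gene Cdon was lower (-1.59, SE 0.37, adjusted p = 0.0038, lost without WT replicate 1), and Ptch1 did not pass (0.20, SE 0.13, adjusted p = 0.446). Of the 7 of 16 pathway genes tested, 2 rose and 1 fell.

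Apcdd1 was one of the Wnt genes that separated the sets. It stood at 256, 222, 233 and 175 CPM with Otx2 and at 37.8, 26.2, 28.5 and 47.4 CPM without, a log2 difference of 2.70 (SE 0.17, adjusted p = 6.3e-13). Apcdd1 was detected in 69.7% and 19.1% of cells against 15.5% of the mesenchymal cells, whose own expression of it was not tested. Lef1, a nuclear effector and target of Wnt signalling, stood at 25.6, 46.8, 33.7 and 32.1 CPM against 5.66, 2.38, 6.71 and 0 CPM (3.07, SE 0.45). Sp5 was higher (2.60, SE 0.43), and Wnt4 (-2.51, SE 0.38) and the secreted Wnt inhibitor gene Sfrp1 (-2.41, SE 0.12) were lower. Of 21 Wnt genes tested, 7 rose and 3 fell. In the cells without Otx2 the lowest Apcdd1 library was WT replicate 2 and the highest Apcdd1+/- replicate 2, so the genotypes did not order it there.

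The largest differences upward were led by Dmrta2, a transcription factor of forebrain progenitors. Dmrta2 stood at 221, 148, 156 and 181 CPM against 1.89, 2.38, 3.36 and 6.47 CPM (5.63, SE 0.28, adjusted p = 2.2e-15). Emx2 had 103 UMIs against 1, a ratio of 53.4 (95% counting interval 9.37 to 2129), and Barhl1 97 against 3, a ratio of 16.8 (5.57 to 82.7). Tal2 (4.19, SE 0.43), Dmbx1 (4.14, SE 0.47), Otx1 (3.38, SE 0.36), Pou3f1 (3.30, SE 0.24) and Irx3 (3.04, SE 0.27), transcription factors of the midbrain and diencephalon among other places, and the cadherin gene Cdh8 (3.84, SE 0.56) completed the 10 largest. Emx2 was nearly absent from WT replicate 1, at 1.16 CPM, and stood at 28.4 to 39.4 CPM in the other 3. Neurog2, a proneural factor, stood at 57.0, 32.2, 32.2 and 37.9 CPM against 13.2, 2.38, 1.68 and 6.47 CPM (2.78, SE 0.38), and Hes5 was higher by 1.34 (SE 0.15), whereas Hey1 was lower (log2 difference -1.15, SE 0.15).

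The called genes of the midbrain and isthmus list and of the hindbrain list were lower with Otx2. Otx2 itself belongs to the first list and was left out. Tal2 and Dmbx1, named above as higher with Otx2, are in neither list. Fgf8 stood at 2.33, 1.95, 9.20 and 0 CPM with Otx2 and at 52.9, 40.5, 109 and 12.9 CPM without (-3.88, SE 0.37, adjusted p = 2.1e-09). Of 6 midbrain and isthmus identity genes tested, 5 were lower with Otx2, among them En1 (-1.13, SE 0.20) and Lmx1b (-2.19, SE 0.35). Of 6 hindbrain genes tested, 3 were lower and none higher. Irx2 was among the lower ones (-1.54, SE 0.20). Cyp26b1 had 3 UMIs with Otx2 and 134 without, a ratio of 86.2 (95% counting interval 28.9 to 423), with none in Apcdd1+/- replicate 1. Zcchc12 (-4.51, SE 0.43), Anxa2 (-4.14, SE 0.39), Ptx3 (-3.58, SE 0.24), Metrnl (-3.44, SE 0.32), Alcam (-3.17, SE 0.25), Ly6h (-2.97, SE 0.18), Ifitm3 (-2.92, SE 0.31) and Dchs2 (-2.87, SE 0.41) were the other genes of largest difference, lower in all 4 libraries. Ptx3 and Fgf8 were thus high where Otx2 was absent, and both had been almost absent from the Lmx1a positive cells, of which 94.8% had Otx2.

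Cycling genes differed with Otx2 within the selected cells. Of 24 S phase genes, 12 were higher with Otx2 and none lower (median 0.37). Rrm2, a ribonucleotide reductase subunit gene, stood at 252.5, 315, 277.5 and 295 CPM against 151, 172, 201 and 168 CPM (0.74, SE 0.11, adjusted p = 1.2e-05), without overlap (349 genes, 4.16%, were higher without overlap). Ccnd2 stood at 1411 ± 182 CPM with Otx2 and 644 ± 170 CPM without (SD over 4 libraries, log2 difference 1.16, SE 0.08). Of 24 G2 and M phase genes, 1 was lower. Fos was lower with Otx2, at 53.5, 5.85, 36.03 and 23.4 CPM against 115, 88.2, 75.5 and 110 CPM (-1.69, SE 0.25), and the summed immediate early and stress list overlapped, at 3784 to 5191 CPM and 4445 to 5197 CPM. Neuron markers outside the rule's 6 summed to 249 to 393 CPM with Otx2 and 295 to 384 CPM without, with 3 of 7 tested higher and 1 lower, and their part in these differences was not tested. In thinned cells Rrm2, Hes5, En1 and Irx2 kept their direction and lost their calls, as did Rrm2 and En1 in cells with no neuronal gene. DESeq2 did not call Barhl1, Cdon or Sp5.

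**Figure D4:**
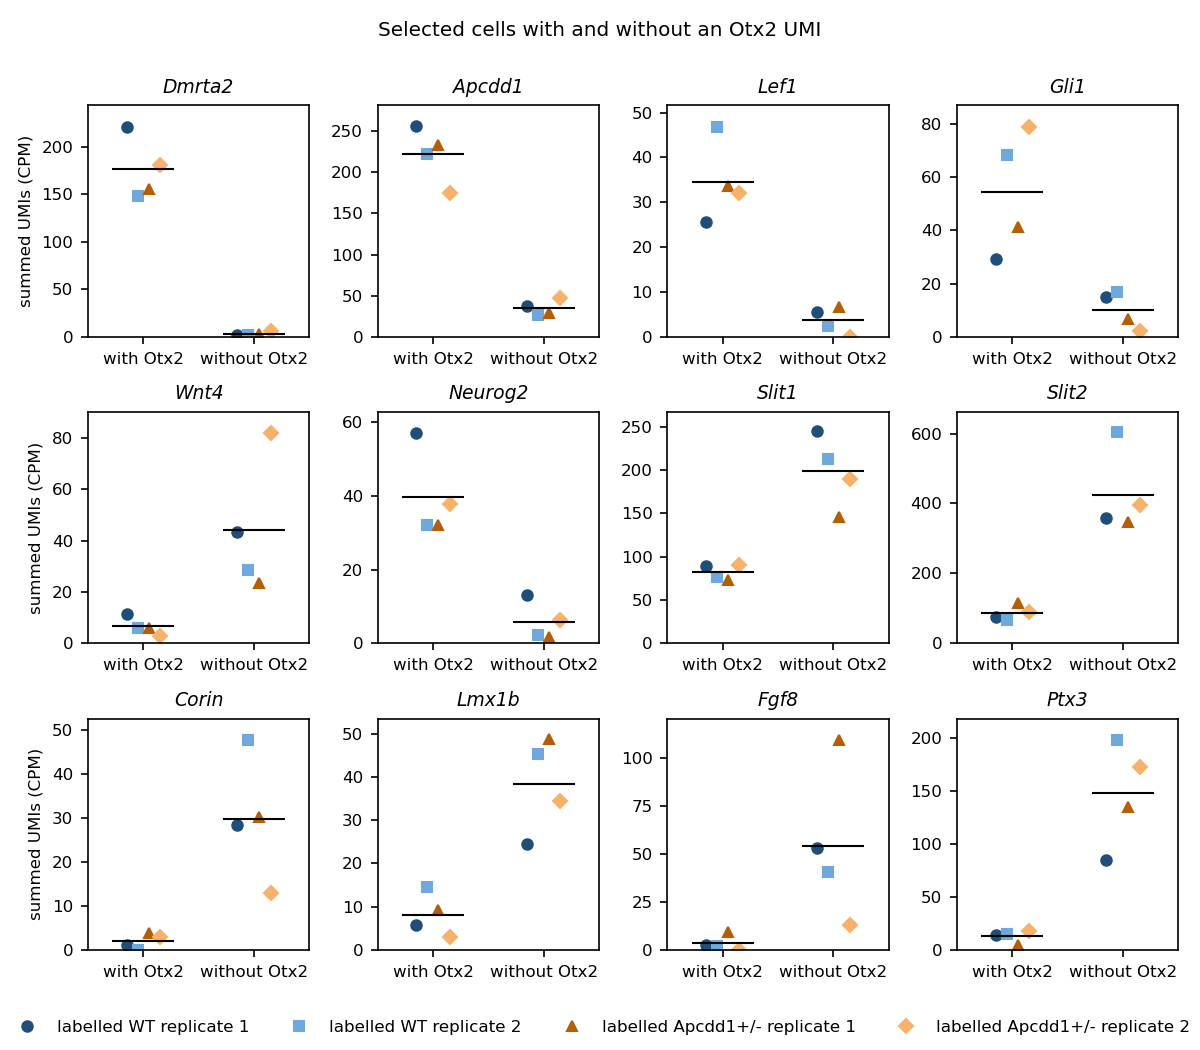
Summed UMIs (CPM, linear axes from 0) of 12 genes in selected cells with and without an Otx2 UMI, 1 point per library, bar: mean of the 4 libraries. Apcdd1 is at 175 to 256 CPM with Otx2 and 26.2 to 47.4 CPM without, and Slit2 at 66.3 to 114 CPM and 346 to 603 CPM.

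Sim1 was detected in 84 of the 501 cells (19, 21, 27 and 17 per library). Only 2 cells had Sim1 and none of Spon1, Lrtm1 and Shh, so the planned test of Sim1 cells without floor plate genes could not be made and cells were divided by Sim1 alone, again after these numbers were known. Cells with Sim1 had Otx2 in 91.7% and Lrtm1 in 75.0%, against 56.6% and 36.5% of the other 417, at median depths of 11433 and 10265 UMIs. Of 8452 genes tested, 190 passed the threshold (2.25%), 56 higher (0.663%) and 134 lower (1.59%) with Sim1. The count was 126 without WT replicate 1, 106 without WT replicate 2 and 107 without Apcdd1+/- replicate 1, so the number called moved with single libraries. It was 73 with Foxa2 at 2 UMIs or more and 62 with DESeq2.

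Cells with Sim1 were higher in Dmrta2, at 429, 302, 149 and 379 CPM against 72.2, 49.8, 99.1 and 53.8 CPM (2.1, SE 0.18, adjusted p = 4.5e-15), and in Neurog2, at 110, 53.0, 32.7 and 99.7 CPM against 24.7, 15.1, 20.5 and 9.49 CPM (1.94, SE 0.32). Wnt5a stood at 162, 218, 178 and 229 CPM against 69.6, 94.3, 123 and 89.6 CPM (1.03, SE 0.17, adjusted p = 6.9e-06). Apcdd1+/- replicate 1 had the smallest gap for all 3 genes. The calcium channel subunit gene Cacna2d3 (1.45, SE 0.25), the PACAP receptor gene Adcyap1r1 (1.45, SE 0.15), Abcd2 (1.39, SE 0.23) and Tbc1d4 (1.80, SE 0.34) were higher as well, and so were the guidance receptor genes Ephb2 (1.15, SE 0.11) and Dcc (1.03, SE 0.21). Rflna (1.86, SE 0.50), Alpl (1.86, SE 0.49), Npl (1.38, SE 0.39) and Scn8a (1.31, SE 0.34) were called too, but each lost its call without WT replicate 1, and Alpl, Npl and Scn8a also lost theirs without Apcdd1+/- replicate 1, Npl without Apcdd1+/- replicate 2 and Alpl without WT replicate 2.

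Several genes were nearly absent from the Sim1 cells. Lmx1b had no UMI there and 111 in the other cells, 8.62-fold lower at the floor of 3 counts. At that floor Gm17455 had none and 134 (10.4-fold), Wnt8b none and 99 (7.69-fold) and Zcchc12 none and 102 (7.92-fold). Alcam had 2 UMIs against 391, a ratio of 45.6 between the other cells and the Sim1 cells (95% counting interval 12.5 to 378). Gprc5c had 1 UMI against 112 (ratio 26.1, 4.59 to 1040), Dbx1 1 against 93 (21.7, 3.80 to 865, call lost without WT replicate 2) and Metrnl 2 against 168 (19.6, 5.34 to 163). Fam183b (-4.12, SE 0.38) and Cbln1 (-3.80, SE 0.44) completed the 10 largest downward. In the other cells these genes were present in all 4 libraries.

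Some floor plate and ventral domain genes were lower with Sim1. Of the 11 of 16 floor plate genes tested, 5 fell, none rose and 6 did not pass (median -0.64). Of the 9 of 16 ventral domain factors tested, 4 fell, 1 rose and 4 did not pass (median -0.99). Slit2 stood at 43.3, 46.7, 47.6 and 184 CPM against 214, 272, 217 and 219 CPM (-1.70, SE 0.20), with Apcdd1+/- replicate 2 far above the other 3. Nkx6-2 stood at 27.6, 21.8, 32.7 and 19.9 CPM against 111, 114, 88.9 and 117 CPM (-2.04, SE 0.27), and Nkx2-9 was lower (log2 difference -2.58, SE 0.39). Slit1 did not pass (-0.05, SE 0.18, adjusted p = 0.98). Apcdd1 stood at 224, 168, 238 and 194 CPM against 161, 164, 154 and 109 CPM, higher in 4 of 4 libraries without passing the threshold (0.46, SE 0.15, adjusted p = 0.11). Since 77 of the 84 Sim1 cells had Otx2, these differences and those by Otx2 rest in part on the same cells. No S phase gene of 24 passed. DESeq2 did not call Adcyap1r1, Metrnl, Dbx1, Nkx2-9, Slit2, Rflna, Alpl, Npl or Scn8a. With Foxa2 at 2 UMIs or more, Tbc1d4, Wnt5a, Dcc, Wnt8b, Zcchc12, Alpl, Npl and Scn8a lost their calls.

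**Figure D5:**
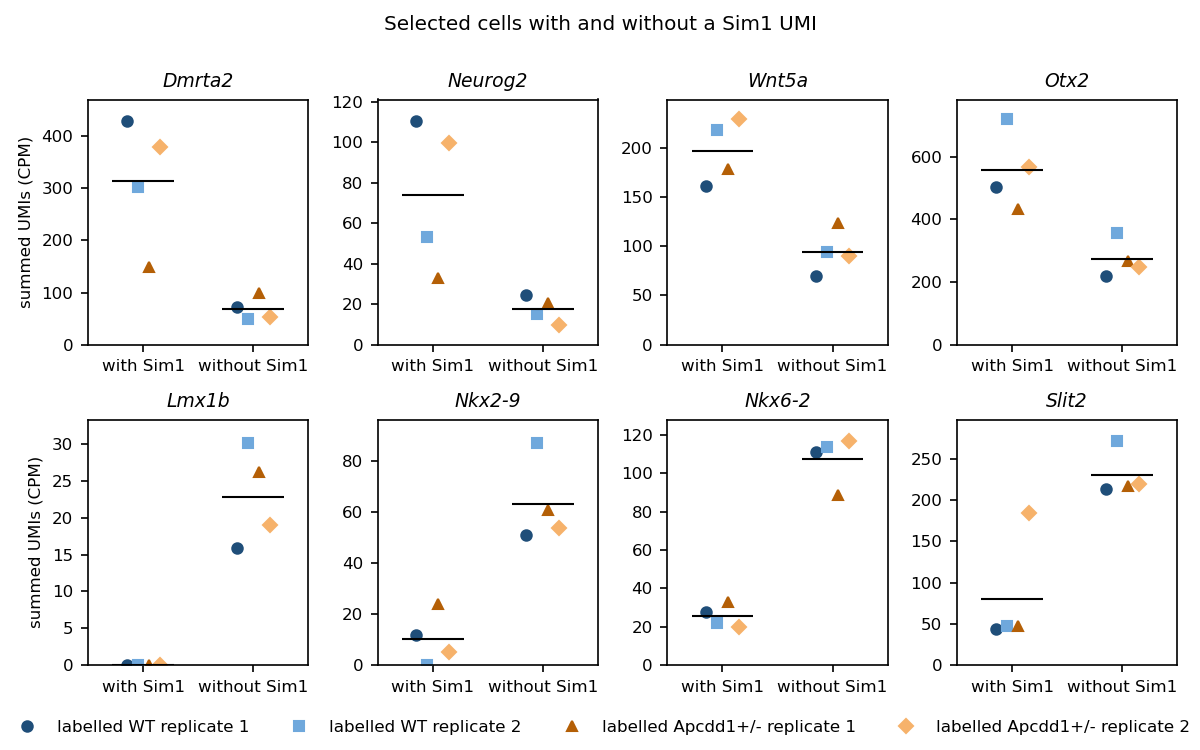
Summed UMIs (CPM, linear axes from 0) of 8 genes in selected cells with and without a Sim1 UMI, 1 point per library, bar: mean of the 4 libraries. Dmrta2, Neurog2, Wnt5a and Otx2 are higher with Sim1, Lmx1b is at 0 in every library with Sim1, and Nkx2-9, Nkx6-2 and Slit2 are lower.

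The cells also varied with Shh, described here without a test because Shh is a rule gene. The 178 cells with Shh (median depth 12457.5 UMIs) had Foxa1 in 48.9%, against 22.6% of the 323 without (9780 UMIs) and Ntn1 in 68.5% against 52.9%. Although the cells with Shh were deeper, they had Nkx6-2 in 12.4% against 35.6%, Nkx2-2 in 14.6% against 29.7% and Gli1 in 13.5% against 24.5%. Spon1 was detected in 90.4% and 91.9%, Otx2 in 62.9% and 62.2% and Apcdd1 in 49.4% and 51.4%. Cells without Shh could enter only with Spon1, Lrtm1 or Sim1, so the rule itself raises Spon1 in that set. The Spon1 shares therefore cannot tell whether Spon1 varies with Shh. After thinning to 5000 UMIs, which left 76 and 222 cells, Foxa1 was detected in 35.5% and 16.7% and Ntn1 in 47.4% and 40.1%. Nkx6-2 was then detected in 5.26% and 25.2%, Nkx2-2 in 9.21% and 17.1% and Gli1 in 5.26% and 9.91%. Lrtm1 went with Otx2 in the same descriptive way, since 87.0% of the 215 cells with Lrtm1 and 44.1% of the 286 without had Otx2.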

How the data were processed

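Per the labels' protocols, E10.5 mouse heads were stored overnight in preservation solution and dissociated enzymatically, and dead cells were sorted out by DAPI. The deposited matrices hold raw UMI counts per gene and cell, made with PISA 0.12 per the file headers. The submitters' processing notes name mm10 and Scanpy 1.9.1 without saying for what step, and no aligner or annotation is given in the sources used here.

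Cells with at least 500 genes and under 10% mitochondrial UMIs were kept, the rule was applied to raw counts, and UMIs were summed per library and class. Levels are CPM of these sums. Sums were tested with edgeR 4.0.16 (TMM scaling, filterByExpr, quasi-likelihood test, Benjamini-Hochberg over all genes tested, threshold 0.05). Comparisons between classes had the library as a term, and libraries with under 10 cells in a class were left out. The 14 rule genes were left out of class comparisons, and Otx2 out of the Otx2 comparison. SEs were derived from the log2 difference and the F statistic. DESeq2 1.42.0 and upper quartile scaling were alternatives, as were no filter, leaving out each library, cells thinned to 5000 UMIs, stricter cell rules and other block terms. Thinned cells were classed anew by the rule on their thinned counts, so depth and class membership both changed. Scripts were tested on simulated counts. Free RNA can give UMIs in cells that do not express a gene, so shares in mesenchymal cells are given as background. Whether mesenchymal cells express these genes themselves was not tested, so their shares do not measure free RNA alone. Fewer UMIs of a gene in a class cannot be told apart from fewer cells expressing it. Folds at the floor of 3 counts and 95% counting intervals pool UMIs over libraries and take each UMI as independent. They leave out the spread between cells and between libraries.

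For each comparison the named genes were up to 10 in each direction of largest difference past the threshold, with at least 20 CPM in 1 class and the same direction in all libraries, and up to 6 past the threshold per list. Gli1, Ptch1, Hhip, Disp3, Cdon, Nkx6-2 and Barhl2 against Foxa2 negative progenitors, Nkx2-9 against Lmx1a positive cells, and Foxa1 and Ptch1 by Otx2 were named beyond this, after their values were seen. The members and the gene lists were chosen with earlier results of these data known. No label says that equal replicate numbers pair the samples, and the main fit took the libraries as unpaired. Same-numbered libraries had deviations with a correlation of 0.0171 over 9662 genes. A single correlation of noisy sums cannot settle whether they share a batch or litter. Results for some genes that the rule would name are not reported here.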

Additional observations from a re-analysis of the deposited data

How the results depend on the processing

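Between genotypes the number called rose from 0 to 7 with no filter on low counts and to 4 to 9 with 1 library left out. With the replicate number as a block it was 2, and whether the numbers pair the samples is not known. Against Lmx1a positive cells the number called was 153 with DESeq2, 117 in thinned cells, 177 with Foxa2 at 2 UMIs or more, 204 with no replicate block for the library, and 199 to 276 with 1 library left out. Against Foxa2 negative progenitors it was 1899 in thinned cells, 1862 in cells with no neuronal gene and 1485 with no replicate block. By Sim1 it was 62 with DESeq2, 73 with Foxa2 at 2 UMIs or more, 97 with no replicate block, and 106 to 170 with 1 library left out. By Otx2 it was 305, 452 and 387 in the same order, 155 in thinned cells, 212 with no neuronal gene, and 499 to 618 with 1 library left out. The direction of the share by genotype turned to 0.211 points with no neuronal gene, and with 1 library left out it ran from -1.15 to 0.158 (without WT replicate 2). Log2 differences that turned in thinned cells were Crabp1 by genotype (-0.040) and Gli1 against Foxa2 negative progenitors (-0.044). With 1 library left out, values that were not called turned over the ranges -0.42 to 0.036 (Apcdd1 by genotype), -0.43 to 0.036 (Slit1 by genotype), -0.27 to 0.11 (Slit1 by Sim1) and -0.39 to 0.035 (Foxa1 by Otx2). Apcdd1 by genotype was 0.16 with no neuronal gene and Slit1 by Sim1 was 0.028 with Foxa2 at 2 UMIs or more. For named genes in the 4 class comparisons, the other values kept their direction. The causes were not tested. Not run were thinned cells by Sim1 and cells with no neuronal gene by Sim1 and against Lmx1a positive cells, for lack of cells in enough libraries. Thinned cells against Lmx1a positive cells, Foxa2 at 2 UMIs or more by Sim1 and no neuronal gene by Otx2 used 3 libraries. The depth of single cells limits every class that rests on an absent gene.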
